A study of Mus musculus with 2 samples.

Results

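The 10 immediate early genes Fos, Fosb, Jun, Junb, Jund, Egr1, Ier2, Atf3, Nr4a1 and Dusp1 were followed through 2 single-cell RNA libraries of mouse cells sorted for a Nestin-GFP reporter. They form a list of well-known members of the family, set by name and not by a threshold on their values, and all 10 had counts in both libraries, out of 25814 genes counted in either. One library came from adult brain and the other from adult lung, each from mice aged about 6 weeks. In this transgenic line GFP is placed under regulatory elements of Nestin, the gene of an intermediate filament protein of neural stem cells, and the study used the line to look for neural stem cells (NSCs) outside the brain. The reporter marks many other cell types as well, so both sorts were mixtures. The labels name C57BL/6 as the strain, while the methods describe breeding with CD1 or mixed CD1 and C3H mice. Each library was a single biological replicate, and the number of mice pooled for it is not given in the sources used here. Both tissues were minced, digested with trypsin in the warm, strained and sorted by flow cytometry before capture on the 10x Chromium system, and no undigested sample was analysed here.

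Immediate early genes are transcribed within minutes of a stimulus, without new protein synthesis, through transcription factors that are already in the cell, such as serum response factor and CREB acting downstream of MAP kinases and calcium. Most of their mRNAs decay quickly. Fos and Fosb pair with Jun, Junb or Jund to form the AP-1 transcription factors, Atf3 is a relative that can also pair with JUN proteins, Egr1 is a zinc finger factor, Nr4a1 is an orphan nuclear receptor, Ier2 is a small nuclear protein, and Dusp1 is a phosphatase that switches MAP kinases off. Growth factors, shear stress and neuronal activity induce them in tissue, and they are also known to be induced while a tissue is being dissociated. A level measured after digestion can hold both kinds of transcript, and the count tables do not separate them.

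The promoters of 4 members are printed because they hold the most and the fewest matches to an element through which CREB acts on immediate early genes. They are RefSeq sequences of GRCm38.p6 that run from 250 bases before to 50 bases after the annotated start, 5′ to 3′ on the strand of the gene. Windows were matched by symbol for 8 of the 10 members, all but Egr1 and Ier2. The capitals mark TGACG or its reverse complement CGTCA, the core of the cyclic AMP response element, which CREB and ATF factors bind. The Fos window lies at chr12:85473640-85473939 on the plus strand, the Nr4a1 window at chr15:101266596-101266895 on the plus strand, the Dusp1 window at chr17:26508423-26508722 on the minus strand and the Jun window at chr4:95052173-95052472 on the minus strand.
Fos: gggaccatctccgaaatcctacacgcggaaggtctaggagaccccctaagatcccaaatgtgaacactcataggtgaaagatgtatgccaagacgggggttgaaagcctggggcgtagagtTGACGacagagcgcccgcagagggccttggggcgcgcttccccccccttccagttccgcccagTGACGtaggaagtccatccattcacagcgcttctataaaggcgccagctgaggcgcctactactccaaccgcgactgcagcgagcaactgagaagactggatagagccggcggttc
Nr4a1: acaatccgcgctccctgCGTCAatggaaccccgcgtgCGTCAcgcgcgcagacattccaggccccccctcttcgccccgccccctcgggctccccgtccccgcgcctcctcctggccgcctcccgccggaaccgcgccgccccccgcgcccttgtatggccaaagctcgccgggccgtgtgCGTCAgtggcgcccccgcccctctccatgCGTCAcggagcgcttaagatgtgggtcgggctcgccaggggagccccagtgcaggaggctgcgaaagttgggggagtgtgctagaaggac
Dusp1: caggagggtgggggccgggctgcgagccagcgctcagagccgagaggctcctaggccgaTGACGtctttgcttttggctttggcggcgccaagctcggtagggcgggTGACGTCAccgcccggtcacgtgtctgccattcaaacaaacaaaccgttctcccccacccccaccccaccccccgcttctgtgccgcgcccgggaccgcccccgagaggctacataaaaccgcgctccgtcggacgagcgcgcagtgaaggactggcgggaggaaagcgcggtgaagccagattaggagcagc
Jun: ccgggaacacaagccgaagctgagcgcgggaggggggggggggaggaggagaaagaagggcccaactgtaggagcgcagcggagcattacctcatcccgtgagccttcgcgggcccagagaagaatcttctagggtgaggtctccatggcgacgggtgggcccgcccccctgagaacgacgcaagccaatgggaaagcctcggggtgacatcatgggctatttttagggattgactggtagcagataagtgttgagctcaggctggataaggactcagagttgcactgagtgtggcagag
Nr4a1 held 4 such cores, Dusp1 3 and Fos 2, while Jun held none. In Dusp1, 2 of the 3 cores overlap in the whole palindrome TGACGTCA. Of the 8 windows, 6 held at least 1 core on either strand (all but Jun and Jund), against 20.8% of all 32851 windows of the same length. The whole palindrome was found in 1 of 8, against 1.79% of all windows. The AP-1 site TGANTCA, searched on both strands, was in 0 of 8 against 7.81%, and the CArG box, the motif of serum response factor, in 0 of 8 against 1.63%. These are matches of letters, not measured binding, and an element outside the window is not seen.

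Counts are unique molecular identifiers (UMIs), each standing for one captured transcript end, so levels of different genes can be set beside each other without a correction for length. The limits on genes and mitochondrial counts in the study's methods left 4151 of 4640 brain barcodes (19518081 UMIs, median 4209 per cell) and 5608 of 5981 lung barcodes (31797069 UMIs, median 5585 per cell). The legend of the study's own maps gives 4640 brain and 5981 lung cells, so all barcodes were shown there. Only 11 of the kept barcodes occurred in both libraries. A cell was put into a class when its markers of that class clearly led those of every other, and the class is called "-like" after its marker list. This gave 10 brain and 8 lung classes of 31 to 2136 cells, and left 325 brain and 1192 lung cells without a class. In every class but the lung epithelial-like cells, at least 2 of the 10 leading genes were on its own list. The 42 lung epithelial-like cells were led by Sftpc but also by Ccl21a and the antigen presentation genes Cd74 and H2-Aa, the brain endothelial-like cells by the globin gene Hbb-bs beside Cldn5, and the lung endothelial-like cells by the neuronal gene Stmn2 beside Cldn5. The classes are ranges of a score, and cells lay close to the limit in several of them, 95 of 255 myofibroblast-like, 103 of 362 smooth muscle-like, 27 of 97 activated NSC-like, 86 of 894 lung fibroblast-like, 20 of 224 oligodendrocyte progenitor-like and 183 of 2136 pericyte-like cells. Levels are counts-per-million (CPM), the UMIs of a gene over all UMIs of the class, and a bracket gives the exact 95% Poisson interval of a level or the exact conditional binomial interval of a ratio. There are no replicates, since each tissue is 1 library. The intervals cover counting error only, no test was made, and tissue cannot be told apart from library, sort and digestion.

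The summed level of the 10 genes spanned 24.4-fold over the 18 classes. It was highest in the 31 lung Schwann-like cells, at 13788 CPM [13229 to 14365], and lowest in the 61 brain fibroblast-like cells, at 564 CPM [490 to 647]. With a looser border, a marker lead of 0.05 instead of 0.1, the brain fibroblast-like class held 380 member UMIs in 67 cells instead of 205 in 61. It then stood above the brain mural-like cells. Both ends of the order were small classes. Their intervals lay far apart, but these cover counting error only, and the span depends on the border of the lowest class. The lung fibroblast-like cells followed at 11545 CPM [11465 to 11626], and the brain microglia-like cells came next at 10257 CPM [9784 to 10746]. The microglia-like cells were the single brain class within the range of the lung mesenchyme.

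Below them came the contractile lung classes. Myofibroblast-like cells had 7420 CPM [7276 to 7567] and smooth muscle-like cells 7149 CPM [7046 to 7255]. Lung endothelial-like cells had 4904 CPM [4830 to 4979] and epithelial-like cells 4661 CPM [4445 to 4885]. The intervals of the first pair did not overlap, though the levels lay close, and those of the second pair did, so endothelial-like and epithelial-like cells could not be ordered. The pericyte-like cells, the most numerous lung class, had 2769 CPM [2738 to 2800], the lowest of the lung mesenchymal and vascular classes. The T cell-like cells were lowest in lung at 1309 CPM [1177 to 1451].

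In brain, ependymal-like and endothelial-like cells could not be separated, with 2375 CPM [2264 to 2489] and 2374 CPM [2288 to 2463]. This tie rested on few cells, since the 108 of 116 ependymal-like cells that fell into their main cluster had 1881 CPM [1779 to 1988]. Neuroblast-like (NB-like) cells had 2005 CPM [1976 to 2034] and activated NSC-like (aNSC-like) cells 1617 CPM [1533 to 1706]. These 4 classes formed the middle of the brain order. The lower group held mature oligodendrocyte-like (mOL-like) cells at 998 CPM [913 to 1089], the class of quiescent NSC-like or astrocyte-like cells (qNSC-like cells below) at 967 CPM [933 to 1002], mural-like cells at 823 CPM [740 to 913] and oligodendrocyte progenitor-like (OPC-like) cells at 729 CPM [682 to 779]. The mOL-like and qNSC-like cells overlapped, as did the mural-like and OPC-like cells. Of the 17 pairs of neighbours in the whole order, 4 had overlapping intervals by counting error alone. Of the 8 lung classes, 7 stood above all brain classes but the microglia-like cells, the exception being the T cell-like cells. Cells without a class had 1522 CPM in brain and 6990 CPM in lung.

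**Figure D1:**
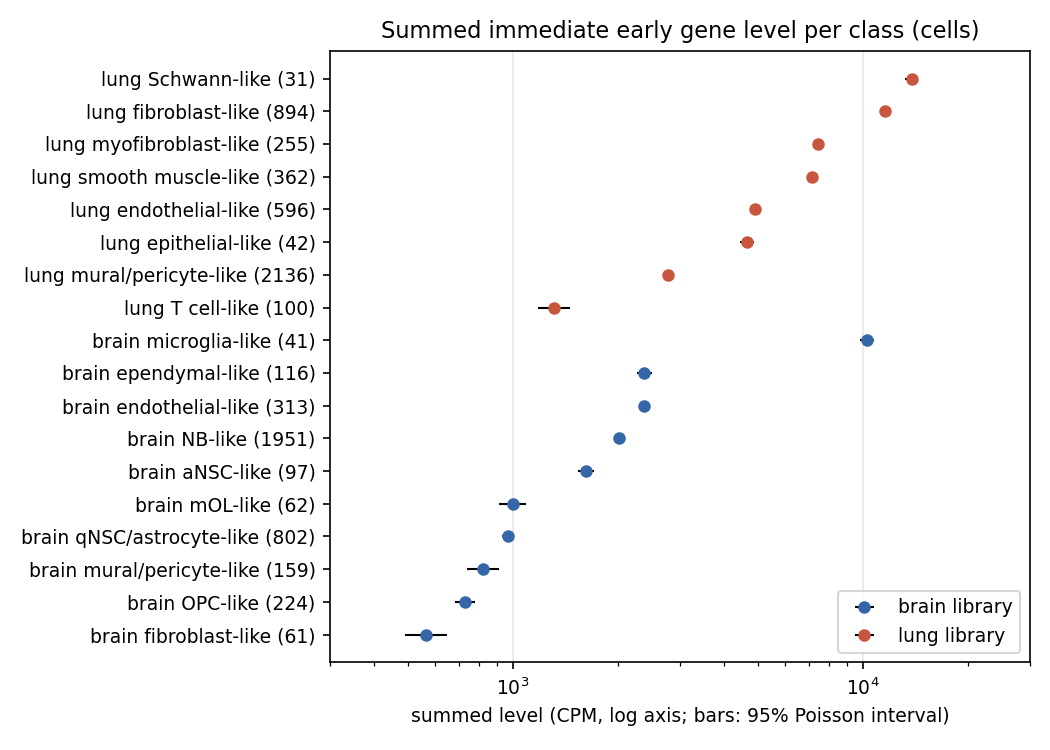
Summed level of the 10 immediate early genes in each class (x axis, CPM on a log scale), with brain classes in blue, lung classes in red and the number of cells in brackets; bars are 95% Poisson intervals and are often narrower than the point. Lung classes run from 1309 CPM in T cell-like to 13788 CPM in Schwann-like cells, and brain classes from 564 CPM in fibroblast-like to 10257 CPM in microglia-like cells.

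Fos and Fosb, the FOS subunits of AP-1, both ranged widely. Fos was lowest in brain mural-like cells, at 20.7 CPM (9 UMIs, an interval that overlapped with mOL-like, brain fibroblast-like and T cell-like cells), and highest in Schwann-like cells, at 3357 CPM, a span of 162-fold. Its median was 125 CPM over the 10 brain classes and 1136 CPM over the 8 lung classes. In brain only the microglia-like cells (1131 CPM), the ependymal-like cells (387 CPM) and the qNSC-like cells (209.8 CPM [194 to 226]) reached 200 CPM. In the qNSC-like cells 64 of 660 Fos UMIs came from 1 cell, and without it the level was 189.8 CPM. In lung, fibroblast-like (2098 CPM), smooth muscle-like (1586 CPM) and myofibroblast-like cells (1554 CPM) were high, pericyte-like (467 CPM) and endothelial-like cells (352 CPM) lower, and T cell-like cells, at 47.0 CPM, within the brain range. Fosb, a close relative of Fos, ran from 1.49 CPM in NB-like cells (14 UMIs in 1951 cells) to 518 CPM in Schwann-like cells, with medians of 13.4 CPM in brain and 173 CPM in lung. NB-like cells thus held Fos at 120 CPM, near the brain median, with Fosb at the low end, where mOL-like cells (1 UMI) and brain fibroblast-like cells (2 UMIs) overlapped with them.

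The 3 JUN subunits did not follow one order. Jun peaked in brain microglia-like cells (3177 CPM), followed by Schwann-like (2543 CPM), lung fibroblast-like (2138 CPM), epithelial-like (1419 CPM) and lung endothelial-like cells (1182 CPM). Its lowest levels, 54.2 CPM in T cell-like and 60.6 CPM in brain fibroblast-like cells, overlapped within counting error. The contractile lung classes, high for Fos, were moderate for Jun, with 640 CPM in myofibroblast-like and 705 CPM in smooth muscle-like cells.

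With the microglia-like cells set aside, Junb had the least overlap between the classes of the 2 libraries. Over whole libraries the lung over brain ratio was larger for Nr4a1 (16.5) and Fosb (16.1) than for Junb (13.4). All 8 lung classes, from 474 CPM in T cell-like to 1780 CPM in fibroblast-like cells, lay above every brain class except the microglia-like cells, which had the highest level of all at 2105 CPM. The next brain class was the endothelial-like at 337 CPM, and the mOL-like (13.8 CPM), OPC-like (15.8 CPM), aNSC-like (21.4 CPM) and NB-like cells (34.3 CPM) were far below. Junb was the only member for which no lung class fell within the range of the other brain classes.

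Jund, the JUN subunit with the steadiest transcription in most cells, had the narrowest range of the 10 genes, 6.61-fold, from 243 CPM in OPC-like to 1605 CPM in lung fibroblast-like cells. Microglia-like (1571 CPM) and Schwann-like cells (1537 CPM) overlapped with the lung fibroblast-like cells. In brain it was high in ependymal-like (919 CPM) and mOL-like cells (748 CPM), and 12 of its 17 neighbour pairs overlapped. The medians were 524 CPM in brain and 910 CPM in lung.

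Egr1 had an order of its own in the neural classes. It stood at 600 CPM [584 to 616] in NB-like cells and 546 CPM [497 to 599] in aNSC-like cells, but at 65.2 CPM in qNSC-like, 44.1 CPM in OPC-like and 15.7 CPM in mOL-like cells. After the microglia-like cells (1183 CPM) the NB-like and aNSC-like cells, whose intervals overlapped, had the most Egr1 in brain, and the NB-like cells exceeded both the lung endothelial-like (241 CPM) and the lung pericyte-like cells (289 CPM). Levels above 1000 CPM were found in Schwann-like (2429 CPM), lung fibroblast-like (1627 CPM), myofibroblast-like (1258 CPM) and smooth muscle-like cells (1150 CPM). The brain fibroblast-like cells held 3 Egr1 UMIs in all, or 8.26 CPM, a low value that overlapped with those of mOL-like, brain mural-like and T cell-like cells. Ier2 was less uneven in brain, with 383 CPM in endothelial-like, 193 CPM in NB-like, 168 CPM in aNSC-like and 166 CPM in ependymal-like cells, and only 5.91 CPM (3 UMIs) in mOL-like cells. In lung it was shared by the Schwann-like (1181 CPM), fibroblast-like (1090 CPM) and endothelial-like cells (975 CPM), so the lung endothelial-like cells stood among the highest for Ier2, but below the NB-like cells for Egr1.

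Atf3 and Nr4a1 were the sparse members. Atf3, a stress-inducible partner of JUN proteins, had 0 UMIs in aNSC-like, OPC-like, mOL-like, brain fibroblast-like and T cell-like cells. The floor used here for a count of 0 is 3 UMIs, which is 2.49 CPM in OPC-like cells and 10.8 CPM in the shallower T cell-like cells. The exact interval reaches higher, to 3.07 CPM in OPC-like cells. The gene was highest in Schwann-like (259 CPM) and microglia-like cells (232 CPM), which overlapped, and then in lung fibroblast-like cells (137 CPM). In the microglia-like cells 20 of the 40 Atf3 UMIs came from 1 cell, and without it the level was 121 CPM. Ependymal-like cells, at 48.0 CPM, had the most Atf3 of the neural classes. Nr4a1 had 0 UMIs in mOL-like and brain fibroblast-like cells and 1 UMI in epithelial-like cells. It reached 428 CPM in Schwann-like cells and 172 CPM in lung endothelial-like cells, followed by myofibroblast-like (151 CPM) and smooth muscle-like cells (150 CPM). In brain the microglia-like (40.6 CPM) and OPC-like cells (34.1 CPM) stood apart from NB-like (2.45 CPM), aNSC-like (2.38 CPM) and qNSC-like cells (4.13 CPM). The microglia-like level rested on 7 UMIs, 3 of them from 1 cell. Without that cell the ratio to all other brain cells fell from 6.95 to 4.10 [1.10 to 10.8]. OPC-like cells had the lowest Jund level, overlapping with qNSC-like cells, and yet more Nr4a1 than 10 of the other 17 classes. On 41 UMIs their Nr4a1 interval overlapped with those of lung pericyte-like (33.0 CPM) and brain mural-like cells (11.5 CPM).

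Dusp1, the feedback phosphatase, was the only member whose highest level lay in endothelial-like cells. It had 618 CPM in lung endothelial-like cells, 546 CPM in lung fibroblast-like cells and 350 CPM in Schwann-like cells. Within brain the microglia-like (220 CPM) and endothelial-like cells (146 CPM) led, and the OPC-like cells were low at 7.48 CPM (9 UMIs), overlapping with mOL-like and brain fibroblast-like cells. Pericyte-like cells of the lung, with a lower sum than the epithelial-like cells, had more Dusp1, 279 against 107 CPM.

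**Figure D2:**
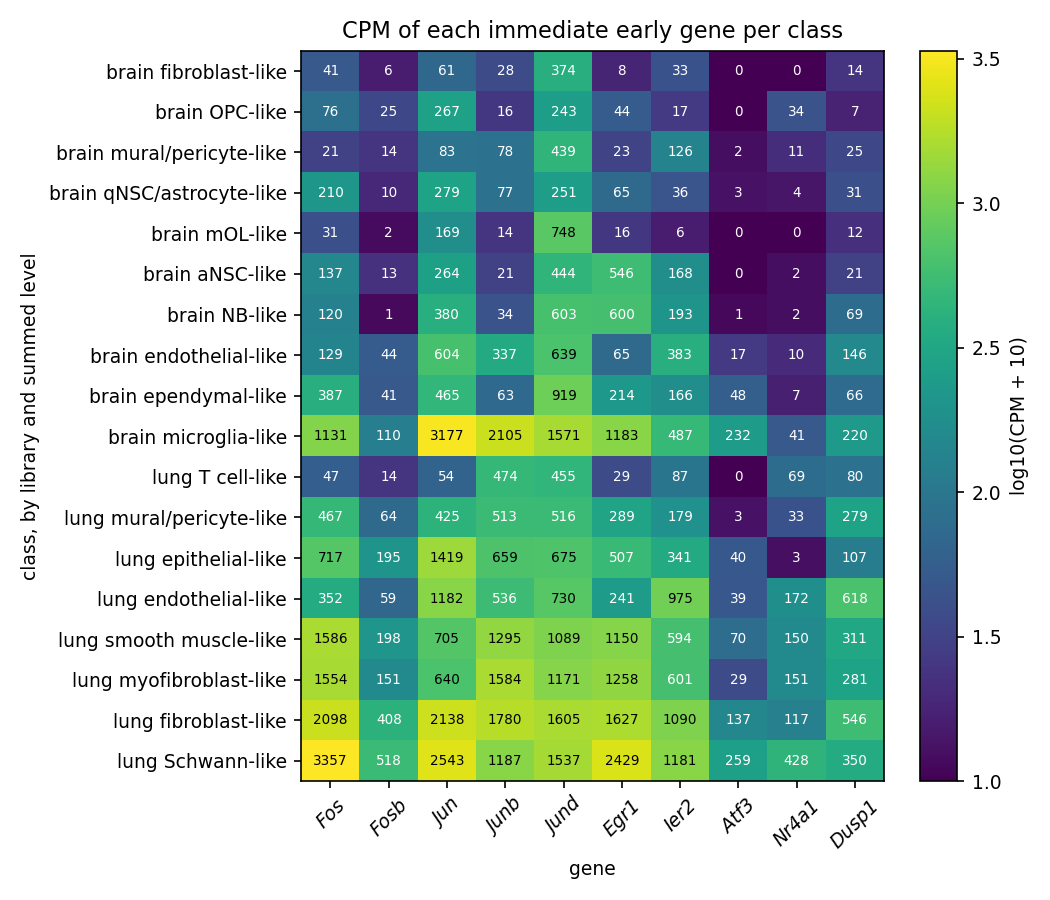
CPM of each of the 10 genes (columns) in each class (rows, ordered by library and summed level), with colour for log10(CPM + 10) and the CPM printed in each cell. Jund varies least across rows, Egr1 is high in the NB-like and aNSC-like rows of the brain block at 600 and 546 CPM, and Dusp1 peaks in the lung endothelial-like row at 618 CPM.

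The make-up of the sum differed from class to class. Jund gave 75.0% of the UMIs of the 10 genes in mOL-like cells, 66.3% in brain fibroblast-like and 53.4% in brain mural-like cells, but 11.2% in Schwann-like and 13.9% in lung fibroblast-like cells. Where the sum was low in brain, most of it was therefore Jund, except in OPC-like and qNSC-like cells, where Jun gave 36.6% and 28.9%. The share of Egr1 was 33.8% for aNSC-like, 29.9% for NB-like and 6.74% for qNSC-like cells. In endothelial-like cells of both tissues Jun was the leading or second gene, with 25.5% in brain and 24.1% in lung, while Ier2 gave 16.1% and 19.9%. The share of Dusp1 was 6.14% in brain and 12.6% in lung. T cell-like cells consisted mainly of Junb (36.2%) and Jund (34.8%).

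Ratios between members within a class do not depend on how many UMIs the class had in all. There were 4.99 Egr1 UMIs [4.68 to 5.32] per Fos UMI in NB-like and, among aNSC-like cells, 3.99 [3.25 to 4.94], against 0.311 [0.264 to 0.364] in qNSC-like cells. The neurogenic classes were the only ones in which Egr1 clearly exceeded Fos. Fos per Jund ran from 0.0421 in mOL-like and 0.0471 in brain mural-like cells to 0.905 in lung pericyte-like, 1.46 in smooth muscle-like and 2.18 in Schwann-like cells. Junb per Jun was 0.0592 in OPC-like and 0.0902 in NB-like cells, 2.48 in myofibroblast-like cells and 8.73 [5.11 to 16.0] in T cell-like cells. Nr4a1 per Dusp1 was 4.56 [2.18 to 10.7] in OPC-like cells, and 1.22 [0.853 to 1.76] in Schwann-like cells, where the interval includes 1. It was 0.536 in myofibroblast-like and 0.482 in smooth muscle-like cells, and lower in the other large classes, with 0.0357 in NB-like, 0.0690 in brain endothelial-like, 0.118 in lung pericyte-like, 0.133 in qNSC-like, 0.214 in lung fibroblast-like and 0.279 in lung endothelial-like cells.

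**Figure D3:**
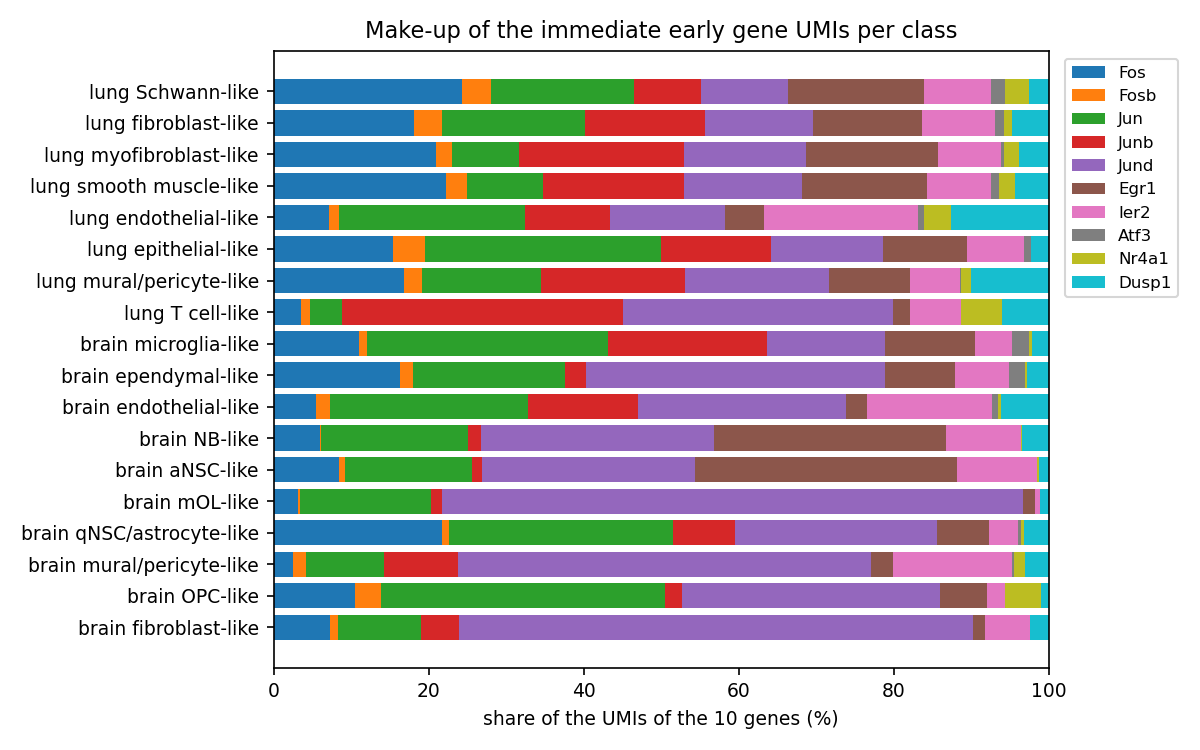
Share of each gene in the UMIs of the 10 genes (x axis, percent) for each class, as stacked bars that each add to 100%. Jund fills 75.0% of the mOL-like bar and 66.3% of the brain fibroblast-like bar, and Egr1 29.9% of the NB-like bar.

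Which members differed between the tissues was examined in the 3 classes found in both, starting with endothelial-like cells (313 in brain and 596 in lung). The summed level was 2.07 times as high in lung [1.98 to 2.15], 4904 against 2374 CPM. Of the 10 genes 6 were at least 2-fold higher in lung, against 14.2% of the 10460 genes with at least 20 UMIs in these cells, and none was 2-fold lower, against 11.1%. Nr4a1 was far ahead, with 587 UMIs (172 CPM) in lung and 12 UMIs (10.1 CPM) in brain, a ratio of 17.1 [9.73 to 33.3]. Dusp1 was 4.24 times as high [3.63 to 4.97], Egr1 3.74 [2.96 to 4.79], Fos 2.73 [2.31 to 3.25], Ier2 2.54 [2.31 to 2.81] and Atf3 2.33 [1.45 to 3.94]. The other 4 members stayed under 2-fold. Jun had a ratio of 1.95 [1.81 to 2.12], Junb 1.59 [1.43 to 1.78], Fosb 1.32 [0.972 to 1.82], an interval that included 1, and Jund 1.14 [1.05 to 1.24]. Globin transcripts stood at 11787 CPM in the brain and 2275 CPM in the lung endothelial-like cells. No other brain class passed 60.5 CPM of globin, and in lung the pericyte-like cells had 1728 CPM. The collagen genes Col1a1, Col1a2 and Col3a1 summed to 21.8 CPM in brain and 525 CPM in lung, and the 8 NB markers, Stmn2 among them, to 153 and 1880 CPM. The part of these transcripts in the ratios was not tested. Thinning every cell to 1000 UMIs gave a summed ratio of 2.43.

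Mural or pericyte-like cells (159 in brain and 2136 in lung) differed more and in other genes. The summed level was 3.37 times as high in lung [3.03 to 3.75], 2769 against 823 CPM. At least 2-fold higher levels were seen for 7 of 10 members, against 20.2% of 11866 genes (13.8% with each count of 0 set to the floor of 3 UMIs), and 2-fold lower levels for none, against 16.7%. Fos led with 467 CPM in lung and 20.7 CPM in brain (9 UMIs), a ratio of 22.6 [11.9 to 49.4]. Egr1 (12.6 [6.83 to 26.2]), Dusp1 (11.04 [6.16 to 22.1]), Junb (6.57 [4.69 to 9.49]), Jun (5.14 [3.71 to 7.35]), Fosb (4.64 [2.12 to 12.7]) and Nr4a1 (2.87 [1.22 to 8.91]) followed. The highest brain cell held 3 of the 6 Fosb UMIs, and likewise 3 of the 5 Nr4a1 UMIs. Without the highest cell of each gene the brain levels fell from 13.8 to 6.94 CPM for Fosb and from 11.5 to 4.62 CPM for Nr4a1. Ier2 (1.42 [1.08 to 1.89]) and Jund (1.18 [1.02 to 1.37]) were close to equal, and Atf3 rested on 1 brain UMI (1.48 [0.249 to 59.9]). Since Jund held 53.4% of the brain sum, leaving it out raised the summed ratio to 5.87. The 3 collagen genes summed to 526 CPM in the brain and 2503 CPM in the lung cells, genes that fibroblasts express strongly and mural cells express as well. The nuclear transcript Malat1 stood at 130700 CPM in the brain and 38814 CPM in the lung cells, and globin transcripts at 36.8 and 1728 CPM. The part of these 3 in the ratios was not tested.

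The largest tissue difference was seen in fibroblast-like cells, 61 in brain and 894 in lung. The sum was 20.5 times as high in lung [17.8 to 23.6], 11545 against 564 CPM, and all 10 members were at least 2-fold higher, against 21.0% of 11514 genes (15% with the floor for counts of 0). None was 2-fold lower, against 14.6%. Egr1 had 11109 UMIs in lung and 3 in brain, a ratio of 197 [67.4 to 955]. Fosb (74.0 [20.5 to 611], 2 brain UMIs), Junb (64.6 [35.1 to 135]), Fos (50.8 [30.8 to 90.8]), Dusp1 (39.7 [17.0 to 122]), Jun (35.3 [23.3 to 56.3]) and Ier2 (33.0 [18.9 to 63.9]) followed. Atf3 and Nr4a1 had 0 UMIs in the brain cells. With 3 counts over the class as a floor, Atf3 was at least 16.5-fold and Nr4a1 at least 14.1-fold higher in lung, while the exact counting intervals of these ratios start at 13.4 and 11.5. Jund differed least, with a ratio of 4.29 [3.62 to 5.12].

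These fibroblast-like cells are not the same kind of cell in both tissues. The 3 collagen genes summed to 74721 CPM in lung and 5897 CPM in brain, where the cells were also led by Slc6a13 and Ptgds, genes of the meninges. Of the 894 lung cells, 868 entered by the general fibroblast markers and 26 by the lung matrix fibroblast markers. The 2 sets differed, with 11738 CPM [11656 to 11820] in the 868 and 3811 CPM [3520 to 4120] in the 26, and with the 26 alone the lung over brain ratio was 6.75. Looser or differently scored borders of the class gave ratios of 12.1, 12.7 and 15.8.

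**Figure D4:**
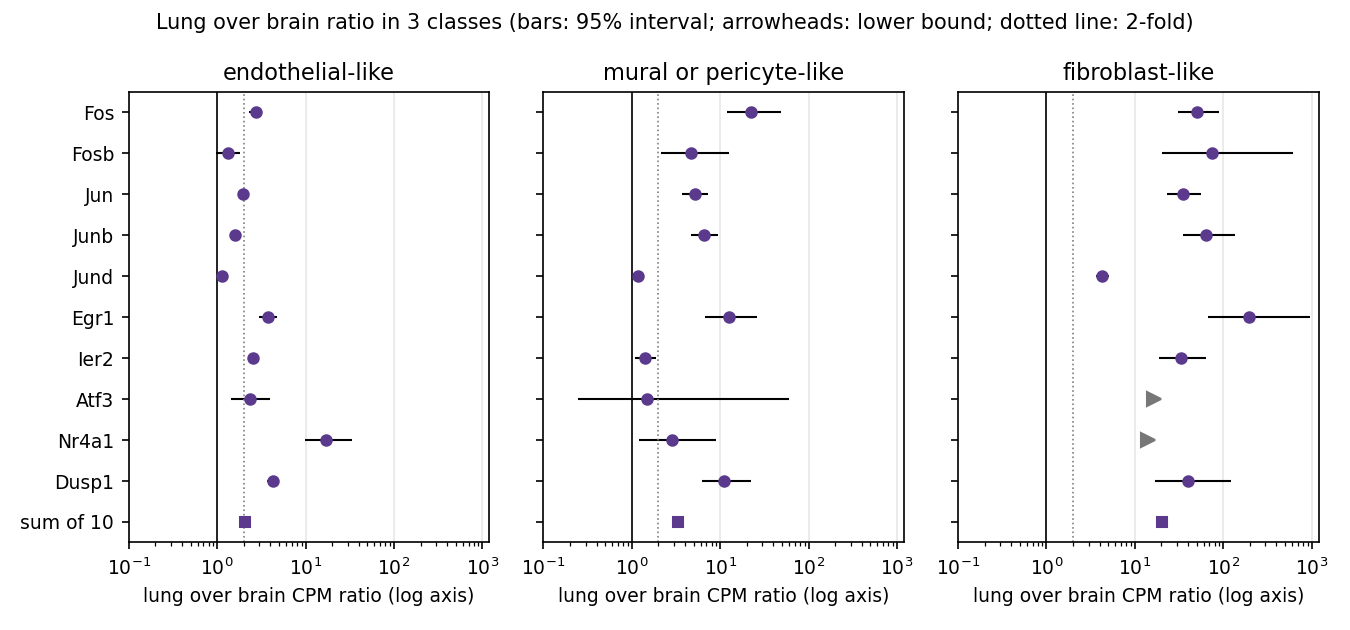
Lung over brain ratio of the CPM of each gene and of their sum (x axes, log scale) in endothelial-like, mural or pericyte-like and fibroblast-like cells; points are ratios, bars 95% counting intervals, arrowheads lower bounds against 0 brain UMIs, the solid line equal levels and the dotted line 2-fold. Nr4a1 leads in endothelial-like cells at 17.1, Fos in mural or pericyte-like cells at 22.6 and Egr1 in fibroblast-like cells at 197, while Jund has the lowest ratio in each panel, with 1.14, 1.18 and 4.29.

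Classes of 1 library had shared digestion, sort and sequencing, and were compared within brain next. Endothelial-like cells had a summed level 1.18 times that of NB-like cells [1.14 to 1.23], a small difference that hid larger ones in both directions. Of the 10 genes 5 were at least 2-fold higher in endothelial-like cells, against 19.9% of 12806 genes, and 1 was lower, against 32.3% (29.3% with the floor). Fosb (44.4 against 1.49 CPM, ratio 29.8 [16.3 to 58.2]), Atf3 (16.8 against 1.28 CPM, 13.1 [6.11 to 29.5]) and Junb (337 against 34.3 CPM, 9.83 [8.47 to 11.4]) were the furthest apart. Nr4a1 (4.11 [1.86 to 8.61]) and Dusp1 (2.13 [1.79 to 2.52]) were the others. Egr1 went the other way, with 64.6 CPM in endothelial-like and 600 CPM in NB-like cells, a ratio of 0.108 [0.0848 to 0.135]. Fos (1.07 [0.901 to 1.27]) and Jund (1.06 [0.980 to 1.14]) had intervals that included 1. With every cell thinned to 1000 UMIs the summed ratio was 1.04 [0.957 to 1.13], which includes 1 as well. Globin transcripts stood at 11787 CPM in endothelial-like and 60.5 CPM in NB-like cells, and their part in these ratios was not tested.

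The qNSC-like cells had less than the NB-like cells in sum, with a ratio of 0.482 [0.464 to 0.501], but not in every gene. Against NB-like cells 3 members were at least 2-fold higher, against 24.2% of 13353 genes, and 4 at least 2-fold lower, against 26.8%, so neither share stands far from that of all genes. Fosb (6.40 [3.29 to 13.1]), Atf3 (2.49 [0.963 to 6.29]) and Junb (2.24 [1.89 to 2.66]) were higher, and the interval of Atf3 included 1. Of the 10 Atf3 UMIs of the qNSC-like cells 8 came from 1 cell, and without it the ratio was 0.499 [0.0543 to 2.24]. Fos was 1.74 times as high [1.58 to 1.92]. Egr1 (0.109 [0.0940 to 0.125]), Ier2 (0.187 [0.154 to 0.227]), Jund (0.417 [0.386 to 0.449]) and Dusp1 (0.454 [0.363 to 0.562]) were lower. Malat1 stood at 136210 CPM in qNSC-like and 43561 CPM in NB-like cells, and its part in these ratios was not tested.

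In lung the fibroblast-like cells were set beside the endothelial-like cells. Their summed level was 2.35 times as high [2.32 to 2.39], and 6 of 10 members were at least 2-fold higher, against 17.7% of 12362 genes, with none 2-fold lower, against 18.0%. Fosb (6.94 [6.01 to 8.05]), Egr1 (6.74 [6.28 to 7.24]), Fos (5.96 [5.61 to 6.32]), Atf3 (3.50 [2.91 to 4.23]), Junb (3.32 [3.16 to 3.49]) and Jund (2.20 [2.11 to 2.30]) were the 6. Ier2 was nearly equal, at 1.12 [1.07 to 1.17]. Dusp1 (0.883 [0.837 to 0.932]) and Nr4a1 (0.678 [0.609 to 0.755]) were lower in fibroblast-like cells. With the 26 cells of the matrix fibroblast markers alone the summed ratio was 0.777, in the opposite direction. Globin transcripts stood at 37.0 CPM in fibroblast-like and 2275 CPM in endothelial-like cells and the NB markers at 25.8 and 1880 CPM, and their part was not tested.

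Pericyte-like cells had a summed level 0.565 times that of lung endothelial-like cells [0.554 to 0.575]. None of the members was 2-fold higher, against 17.7% of 12583 genes, and 5 were at least 2-fold lower, against 15%. The 5 were Atf3 (0.0869 [0.0587 to 0.126]), Ier2 (0.184 [0.174 to 0.194]), Nr4a1 (0.192 [0.168 to 0.219]), Jun (0.360 [0.345 to 0.375]) and Dusp1 (0.452 [0.427 to 0.478]). Fos was 1.33 times as high [1.24 to 1.41] and Egr1 1.20 times [1.11 to 1.29] in pericyte-like cells, while Junb (0.958 [0.908 to 1.0101]) and Fosb (1.09 [0.930 to 1.28]) could not be told from equal. In pericyte-like cells the NB markers were at 8.44 CPM, globin at 1728 CPM and collagen at 2503 CPM, and their part was not tested either. Nr4a1 and Dusp1 stood higher in endothelial-like cells than in both other lung classes.

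In small classes many genes have a count of 0 and enter the share of lower genes for that reason, so this share is also given with the floor of 3 UMIs, under which the counts of members were the same. Among these classes, the 41 microglia-like cells stood furthest from the other brain cells. All 10 members were at least 2-fold higher, against 13.9% of 15505 genes, none was 2-fold lower, against 50.6% (20.4% with the floor), and the sum was 6.19 times as high [5.89 to 6.49]. Atf3 (51.6 [34.5 to 75.8]) and Junb (34.5 [30.6 to 38.9]) led. Without the 1 cell with the most Atf3 the ratio of that gene was 27.0 [15.7 to 44.2]. The class was defined clearly, with its 8 markers at 36667 CPM and at most 118 CPM in any other class. The ependymal-like cells had 3 members at least 2-fold higher than other brain cells, against 17.8%, namely Atf3 (9.80 [6.44 to 14.6]), Fosb (3.90 [2.57 to 5.75]) and Fos (2.82 [2.48 to 3.19]), and none 2-fold lower, against 35.4% (26.0% with the floor). Brain mural-like cells had 5 members at least 2-fold lower, against 38.7% (21.5% with the floor), and none higher, against 13.1%, with Egr1 at 0.0592 [0.0284 to 0.109] of the other cells. Atf3 was counted among the 5 on a single UMI, with a ratio of 0.348 [0.00874 to 1.97] that includes 1.

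In lung the 31 Schwann-like cells had 2.21 times the sum of the other cells [2.12 to 2.30]. At least 2-fold higher were 6 members, against 13.9% of 14897 genes, with Atf3 (5.48 [3.95 to 7.41]), Nr4a1 (4.30 [3.35 to 5.44]), Fos (2.99 [2.74 to 3.25]) and Egr1 (2.94 [2.65 to 3.24]) in front, and none was 2-fold lower, against 39.3% (10.6% with the floor). Junb (1.12) and Dusp1 (0.915) had intervals that included 1. The 3 collagen genes stood at 9980 CPM in these cells, below the 74721 CPM of the fibroblast-like cells but above the 525 CPM of the endothelial-like and 586 CPM of the T cell-like cells, and their part in the ratios was not tested. The T cell-like cells, led by Trbc2, Trbc1 and the thymocyte gene Rag1, had 9 members at least 2-fold lower than other lung cells, against 43.3% (18.9% with the floor), and none higher, against 17.4%, with Egr1 at 0.0343 [0.0148 to 0.0676]. Nr4a1, at 0.677 of the other cells [0.407 to 1.06], was the member not counted, but 10 of its 19 UMIs came from 1 cell, and without that cell its ratio was 0.325 [0.148 to 0.617]. The pericyte-like cells had 9 members at least 2-fold lower than the rest of the lung, against 21.1%, all but Dusp1 (0.641 [0.615 to 0.668]), and none 2-fold higher, against 7.16%.

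Single cells were compared after each was thinned to 1000 UMIs, since deeper cells show more genes. No cell type is known to lack these transcripts, so free RNA was not subtracted, and shares in all classes may include it. Cells without a UMI of any member made up 65.3% of 213 OPC-like, 59.0% of 61 brain fibroblast-like, 58.4% of 772 qNSC-like, 54.7% of 159 brain mural-like and 51.7% of 58 mOL-like cells. The share was 24.2% in NB-like and 33.4% in brain endothelial-like cells, and in lung 22.4% in pericyte-like, 3.87% in endothelial-like, 3.17% in fibroblast-like and 0 in 31 Schwann-like cells, which at this number allows up to 11.2% by the exact binomial interval. Cells with at least 5 of the 10 genes were 67.7% [48.6 to 83.3] of Schwann-like and 59.8% [56.5 to 63.1] of lung fibroblast-like cells, 39.2% of smooth muscle-like, 33.9% of myofibroblast-like, 24.4% of microglia-like and 18.0% of lung endothelial-like cells. In pericyte-like cells this share was 6.87%, and in no brain class but the microglia-like cells did it pass 4.35%.

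Single genes show the same contrasts. At 1000 UMIs, Fos was found in 69.6% of lung fibroblast-like, 20.03% of lung endothelial-like, 7.12% of qNSC-like and 9.19% of NB-like cells, at median depths before thinning of 8330.5, 5395, 3703.5 and 4429 UMIs. Without thinning, a Fos UMI was found in 89.6%, 50.7%, 13.3% and 28.3% of these cells. At 1000 UMIs Egr1 was found in 36.1% of NB-like but 4.27% of qNSC-like cells, and Junb in 15.4% of brain endothelial-like but 3.59% of NB-like cells. Class explained a modest part of the spread between cells: of the variance of log2(1 + UMIs) of the summed members, 14.6% lay between the brain classes and 31.9% between the lung classes. By gene, the share between classes was highest for Junb in brain (17.1%) and Egr1 in lung (26.1%), and lowest for Nr4a1 in brain (0.802%) and Dusp1 in lung (4.10%). Most of the spread at this depth, counting error included, was within classes.

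**Figure D5:**
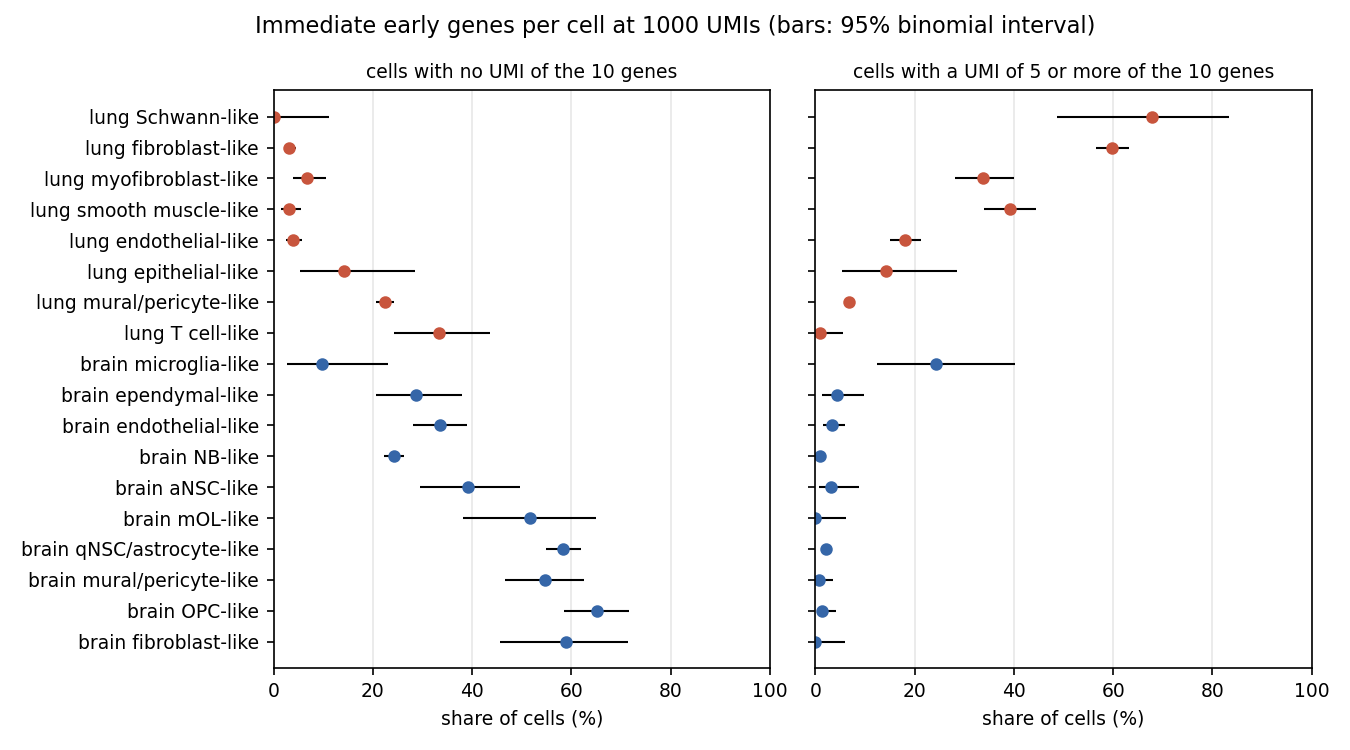
Share of cells (x axes, percent) with no UMI of the 10 genes (left) and with a UMI of at least 5 of them (right) after thinning to 1000 UMIs, by class, brain in blue and lung in red; bars are exact 95% binomial intervals. The share without any member is 65.3% in OPC-like and 3.17% in lung fibroblast-like cells, and the share with 5 or more is 1.004% in NB-like and 59.8% in lung fibroblast-like cells.

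The UMIs were unevenly spread inside the classes. Before thinning, the 5% of cells with the most member UMIs held 50.8% of them in qNSC-like cells and 39.0% in OPC-like cells. The share was 19.1% in NB-like, 15.2% in lung fibroblast-like and 13.9% in smooth muscle-like cells. It was not matched for depth, and it also depends on how many member UMIs a cell has. Ependymal-like (33.5%) and brain endothelial-like cells (31.7%) lay between. In qNSC-like and OPC-like cells the median cell had no member UMI at 1000 UMIs, and the highest had 31 and 14.

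The qNSC-like class holds cells with quiescent stem cell genes and cells with astrocyte genes, and the 2 differed. The 99 cells with a UMI of Gfap or Thbs4 but none of Slc7a10 or Cxcl14 had 2104 CPM [1950 to 2267], and the 414 cells with the reverse had 636 CPM [599 to 675]. The ratio was 3.31 [3.00 to 3.64]. Fos (680 against 71.6 CPM, 9.49 [7.58 to 11.9]), Fosb (9.16 [3.59 to 25.2]) and Junb (232 against 28.0 CPM, 8.29 [5.70 to 12.2]) differed most among the members with more than 10 UMIs in the 2 sets, and Jun least (415 against 259 CPM, 1.604 [1.31 to 1.95]). Atf3 had a ratio of 41.9 [5.62 to 1858] on 8 against 1 UMIs, and the 8 came from 1 cell. The 171 cells with genes of both kinds were in between, at 947 CPM [880 to 1018]. The 118 cells with none of the 4 genes had 1638 CPM [1499 to 1786] and Fos at 559 CPM, at a lower median depth of 1914.5 UMIs. Depth and mitochondrial share were similar in the sets of 99 and 414 cells, with medians of 3343 and 3907.5 UMIs and of 4.85% and 5.13%. These cell groups were named after earlier results on these data, and the split is by presence of a UMI, which depends on depth.

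Clusters built without the members divided other classes as well. Among OPC-like cells, cluster 11 had 1406 CPM [1302 to 1516] and cluster 14 had 279 CPM [240 to 323], at median depths of 4029 and 8813 UMIs. In the same class the deeper cells had 0.469 times the level of the shallower [0.408 to 0.539], whereas in mOL-like cells the deeper had 2.09 times [1.54 to 2.89]. Among qNSC-like cells, cluster 5 had 1903 CPM [1819 to 1989] and cluster 2 had 503 CPM [472 to 536], and cells with a mitochondrial share at or above the median had 0.403 times the level of the others [0.371 to 0.438]. Cluster 16 of the NB-like cells stood at 3300 CPM [3126 to 3481], above the 1919 to 2078 CPM of clusters 0, 1, 4 and 6 and the 1186 and 1457 CPM of clusters 9 and 12. In the lung pericyte-like class, cluster 13 with 91 cells had 5602 CPM [5376 to 5835] and cluster 0 with 1605 cells 2586 CPM [2553 to 2621]. A class value is thus an average over cells of unlike levels. The part of depth and mitochondrial share in these differences was not tested.

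Members went together in single cells to unlike degrees. Over the 772 thinned qNSC-like cells Pearson's r of log2(1 + UMIs) between Fos and Junb was 0.654, and over 213 OPC-like cells 0.650. The cells of a class share a library, so these values are descriptions. The median over all 45 pairs was 0.196 in qNSC-like, 0.190 in myofibroblast-like, 0.178 in lung fibroblast-like and 0.0315 in NB-like cells. In NB-like cells the strongest pair was Egr1 with Ier2, at 0.208, and Fos with Junb had 0.0637.

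Other genes of the response were read from lists, some of which share genes. Sgk1 and Per1 are both effectors and glucocorticoid targets, and Errfi1 is both a feedback gene and a glucocorticoid target. Srf is on the lists of transcription factors and of upstream factors. For these lists a count of 0 was set to 3 UMIs before the 2-fold limit was applied. Of 18 other immediate early transcription factors, those with enough UMIs were at least 2-fold higher in lung for 7 of 11 in endothelial-like, 6 of 13 in mural or pericyte-like and 9 of 14 in fibroblast-like cells, with none lower. Of all genes tested in the 3 classes, 14.2%, 13.8% and 15% were higher by the same limit, and 11.1%, 16.7% and 14.6% lower. Over genes with counts in both tissues, the median log2 ratio of the list was 1.10, 1.15 and 2.14, against 0.02, -0.09 and -0.04 for all genes tested. With the floor for counts of 0 the list gave 1.10, 0.75 and 1.29, for which no value over all genes was computed. In endothelial-like cells Csrnp1 (5.50 [2.91 to 11.7]), Cebpb (4.203 [2.21 to 8.99]) and Maff (2.43 [1.46 to 4.31]) had the largest ratios. In mural or pericyte-like cells Myc (95 UMIs), Nr4a2 (55 UMIs) and Nr4a3 (32 UMIs) were found in lung with 0 UMIs in brain. In fibroblast-like cells this held for Nr4a2 (131 UMIs), Egr2 (97 UMIs) and Myc (76 UMIs). Of these, only Nr4a2 in fibroblast-like cells was 2-fold higher against 3 brain UMIs.

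Of the 19 measured effectors, among them genes of mRNA decay and feedback, 8 were higher in lung endothelial-like cells and none lower, 8 and 2 in mural or pericyte-like cells and 11 and 3 in fibroblast-like cells, to be read against the same shares of all genes. Ppp1r15a, a subunit of a stress phosphatase, was 12.4 times as high [8.40 to 19.1] in lung endothelial-like cells, Socs3, an inhibitor of cytokine signalling, 7.05 times [4.27 to 12.5] and the kinase gene Sgk1 6.14 times [5.05 to 7.54]. In mural or pericyte-like cells Ctgf (30.1 [8.32 to 249]) and Cyr61 (24.0 [6.62 to 198]), matricellular proteins, each rested on 2 brain UMIs, and Zfp36, which speeds mRNA decay, had 6.99 [4.16 to 12.8]. Gadd45b (0.356 [0.228 to 0.581]) and Ier3 (0.452 [0.317 to 0.667]) were lower there. In fibroblast-like cells Cyr61 (50.8 [19.8 to 186]), Ppp1r15a (44.4, 1 brain UMI) and Nfkbiz (37.8 [10.4 to 312]) were highest, and Ier3 (0.268 [0.207 to 0.353]), Ctgf (0.302 [0.255 to 0.358]) and Sgk1 (0.473 [0.297 to 0.794]) were lower. Sgk1 thus had opposite directions in endothelial-like and fibroblast-like cells.

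The next 4 lists are to be read against the shares of all genes in the 3 classes, 14.2%, 13.8% and 15% higher and 11.1%, 16.7% and 14.6% lower, and counts of 0, 1 or 2 genes of a list lie near those shares or below them. The MAP kinase phosphatases and other feedback genes had 3 higher and 1 lower of 8 in endothelial-like, 3 and 0 of 11 in mural or pericyte-like and 2 and 0 of 10 in fibroblast-like cells. Spry4 (14.6 [6.61 to 40.1]) led in endothelial-like cells, and Dusp5, with 1227 lung and 0 brain UMIs, in mural or pericyte-like cells. The heat shock list had 0 higher and 1 lower of 11, 2 and 1 of 12 and 1 and 1 of 12. The gene that was lower in all 3 classes was Hspb1, a small heat shock protein, with ratios of 0.0585 [0.0504 to 0.0677], 0.00533 [0.00354 to 0.00778] and 0.0289 [0.0215 to 0.0386]. Glucocorticoid targets had 3 higher and 1 lower, 1 and 1, and 1 and 1 of 7. Sgk1 and Per1, among the 3 higher in endothelial-like cells, were also counted with the effectors. Of 12 upstream kinases and factors, 1, 1 and 2 were higher and none lower. Mapk3 (2.001 [1.77 to 2.27]) was the one in endothelial-like cells and Srf (2.703 [1.30 to 6.76]) the one in mural or pericyte-like cells.

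Within brain, 9 of 10 measured other transcription factors were at least 2-fold higher in endothelial-like than NB-like cells and none lower, against 19.9% and 29.3% of all genes, led by the endothelial factors Klf4 (407 against 0.213 CPM, 2 NB-like UMIs) and Klf2 (1463 against 2.45 CPM, ratio 598 [397 to 945]). The qNSC-like cells had 5 higher and 1 lower of 10, against 24.2% and 26.8%, with Klf4 (46.3 [11.8 to 399]) and Cebpd (6.31 [4.51 to 8.92]) in front. Bag3, a co-chaperone, was higher than in NB-like cells in both, by 26.8 [12.9 to 60.8] and 21.8 [11.2 to 47.4], while Hsp90aa1 was lower, at 0.130 [0.112 to 0.149] and 0.252 [0.236 to 0.269]. In lung, pericyte-like cells had 2 higher and 7 lower of 13 other transcription factors relative to endothelial-like cells, while 17.7% and 15% of all genes were, with Klf4 (0.0351 [0.0309 to 0.0398]) and Klf2 (0.0941 [0.0904 to 0.0979]) the lowest. Their MAP kinase feedback list went the other way, with 8 higher and 2 lower of 12, among them Dusp4 (21.2 [8.17 to 78.2]) and Dusp5 (20.2 [12.9 to 33.6]). Lung fibroblast-like cells had 4 higher and 4 lower of 14 other transcription factors relative to endothelial-like cells, while 17.7% and 18.0% of all genes were, with Egr2 (24.2 [6.52 to 203], 2 endothelial-like UMIs) highest and Klf2 (0.178 [0.171 to 0.185]) lowest, and 3 higher and 1 lower of 12 heat shock genes.

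The genes whose levels followed the summed members most closely over the 18 classes were Nfkbiz (Pearson's r = 0.918), Socs3 (0.906), Zfp36 (0.893), Fam129a (0.833) and Btg2 (0.803), ranked among 9568 genes by log2(CPM + 10). The 18 points come from 2 libraries and share their depth, so the values are a description. Each member itself had r of 0.714 (Nr4a1) to 0.934 (Fos) with the sum it is part of. The summed effectors gave 0.881, the other transcription factors 0.702, the MAP kinase feedback genes 0.411, the upstream kinases and factors 0.363, the glucocorticoid targets 0.308 and the heat shock genes -0.197. Median depth gave 0.300, median mitochondrial share -0.144 and the nuclear transcript Malat1 -0.401. Within classes, of the 1103 genes ranked over the 9 classes of at least 200 cells, none had a mean r with the members over cells beyond 0.104 (Tpt1), which at 1000 UMIs is no finding.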

How the data were processed

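Brain and lung Nestin-GFP+ cells were each captured as 1 single-cell 3′ library. Per the submitters' processing notes, which give tools but no order, the authors used bcl2fastq 2.19.1.403, UMI-tools 1.0.0, STAR 2.7.1a and featureCounts 1.6.4 with mm10. The deposited values are whole-number UMI counts per gene and cell, not normalized. The rule for calling barcodes and the annotation version are not given in the sources used here.

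The limits on cells followed the methods of the study, over 200 and under 4000 genes and under 40% mitochondrial UMIs. Scrublet marked 44 brain cells (1.06%) and 69 lung cells (1.23%) as doublets, which were kept. Each class had a marker list, and the score was the mean marker level scaled to the 30 highest cells. A cell needed at least 3 markers and a lead of 0.1 over every other class, and a class at least 30 cells. The scoring rule and the lead were set after seeing the data: 3 rules were tried and compared with clusters, with member levels in the same output, and the other rules are given as alternatives. The lung fibroblast-like class joins cells of the general and the matrix fibroblast lists, although matrix fibroblast-like cells alone had been planned. The members, marker lists and gene lists were chosen with earlier results of these data known.

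Counts were summed per class and divided by the class total (CPM). Genes with at least 20 UMIs in the compared classes entered the count of 2-fold differences, and the floor for a count of 0 was 3 UMIs over the class. With 1 library per tissue no test was made and no p-value computed. Intervals are exact at 95% for a level, ratio or share and cover counting error only. Named were the 10 members in every class, of each gene list up to 3 genes with the largest differences in each direction, and the 5 genes most like the summed members among those with at least 50 CPM in a class (pseudocount 10 CPM). Not all genes that the rule allows are printed. Clusters came from Seurat 5.3.0 in R 4.3.3 without the members (2000 variable genes, 20 components, resolution 0.8). The rest was computed in Python 3.11.15 with numpy 2.4.6, scipy 1.17.1, pandas 2.3.3 and scanpy 1.11.5, and the scripts for ratios were tested on simulated data. Alternatives changed the cell filter, the gates, the clusters, thinning, the averaging and the member with the most UMIs.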

Additional observations from a re-analysis of the deposited data

Results flagged for a closer look

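Some differences between classes ran in opposite directions in the 2 libraries. The difference between libraries was not tested, since each tissue is 1 library. Between fibroblast-like and endothelial-like cells this was so for 9 of 11 measures, the 10 genes and their sum. The sum was 2.35 times as high in fibroblast-like cells in lung and 0.238 times in brain. In lung and brain the ratio was 5.96 and 0.320 for Fos, 6.94 and 0.124 for Fosb, 1.81 and 0.1002 for Jun, and 3.32 and 0.0817 for Junb. It was 2.20 and 0.586 for Jund, 6.74 and 0.128 for Egr1, and 1.12 and 0.0862 for Ier2. Atf3 had a ratio of 3.50 in lung and 0 UMIs in the brain fibroblast-like cells, whose interval reached 0.665. With the 26 lung cells of the matrix fibroblast list alone, the lung ratio of the sum was 0.777, in the direction of the brain.

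Between mural or pericyte-like and endothelial-like cells, 2 of 11 measures ran in opposite directions, Fos with 1.33 in lung and 0.160 in brain, and Egr1 with 1.20 in lung and 0.356 in brain. Between fibroblast-like and mural or pericyte-like cells there were 3 of 11, Junb with 3.47 and 0.352, Ier2 with 6.09 and 0.261, and the sum with 4.17 and 0.686. The brain direction of the sum depended on the border of the fibroblast-like class. With a marker lead of 0.05 the brain class held 380 member UMIs in 67 cells instead of 205 in 61, and stood above the mural-like cells.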

How the results depend on the processing

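The 7 ratios of the summed level were recomputed 102 times in all, 5 of them under 14 alternatives and 2 under 16. Of these values, 69 lay within the counting interval of the ratio, 32 changed its size and 1 turned its direction, and 5 moved it by more than 1.5 times. The alternatives with another lead or score, without shared barcodes or with 1 fibroblast list, the values without the cell with the most UMIs of a gene and the floor in list counts were chosen after seeing the data. In the order lung over brain in endothelial-like, mural or pericyte-like and fibroblast-like cells, then brain endothelial-like and qNSC-like over NB-like, and lung fibroblast-like and pericyte-like over endothelial-like cells, the ranges were 2.04 to 2.43, 2.95 to 5.87, 6.75 to 25.8, 1.04 to 1.24, 0.463 to 0.586, 0.777 to 2.53 and 0.528 to 0.630.

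All barcodes with over 200 genes gave 2.29 for lung fibroblast-like over endothelial-like cells. Clusters gave 0.586 for qNSC-like over NB-like and 2.39 for lung fibroblast-like over endothelial-like cells. The mean of each cell's CPM gave 2.37 for endothelial-like and 23.9 for fibroblast-like cells of lung over brain, 1.07 and 0.463 for endothelial-like and qNSC-like over NB-like cells, and 2.21 and 0.544 for lung fibroblast-like and pericyte-like over endothelial-like cells. Thinning to 1000 UMIs gave 2.43 for endothelial-like cells of lung over brain, 1.04 for brain endothelial-like over NB-like cells, whose interval then included 1, and 2.189 and 0.539 for the lung pairs. Thinning to 2000 UMIs gave 2.21 and 25.8 for endothelial-like and fibroblast-like cells of lung over brain, 0.504 for qNSC-like over NB-like cells and 2.21 and 0.528 for the lung pairs. Without the member with the most UMIs (Jund, in the lung pairs Jun) the values were 5.87 for mural or pericyte-like cells of lung over brain, 1.24 and 0.510 in brain, and 2.53 and 0.630 in lung.

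A lead of 0.05 gave 12.1 for fibroblast-like cells of lung over brain and 2.30 and 0.583 for the lung pairs. Scoring by the number of markers gave 15.8 for fibroblast-like cells and 0.582 for pericyte-like over endothelial-like cells. Scoring by standardised levels gave 2.95 for mural or pericyte-like and 12.7 for fibroblast-like cells of lung over brain, and 2.42 for lung fibroblast-like over endothelial-like cells. The matrix fibroblast list alone, with 26 cells, gave 6.75 for lung over brain and 0.777 for lung fibroblast-like over endothelial-like cells, the reverse of the value with all 894 cells. These values follow from which cells each rule admits, and the cause beyond that was not tested. No replicate could be left out. No paired analysis was possible because each group held 1 library and no test was made. In brain fibroblast-like cells the counts were lowest for Atf3, Nr4a1 and Fosb, with 0 to 2 UMIs, and Egr1 had 3.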
